A study of Mus musculus with 6 samples.

Results

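The genes described here are those of the TGF-beta, BMP and activin family and its direct signalling chain in contused mouse spinal cord: ligands, the latent binding proteins that hold them, receptors and Smads. They were chosen by gene symbol (Tgfb1 to Tgfb3, Inha, symbols that begin with Tgfbr, Bmpr, Inhb or Acvr, and symbols in which a digit follows Bmp, Gdf, Smad or Ltbp) and by a mean of 10 or more counts over the 6 libraries. Of 37475 genes in the table, 54 had such a symbol and 49 of them passed the minimum. The 5 below it were Inhbe, Inhbc, Gdf2, Gdf6 and Bmp8a. All mice were wild type and all received a contusion of the spinal cord at vertebral level T10. The SCI group was given PBS, and the SCI+Syr group was given syringin, a phenylpropanoid glucoside made by plants, at 50 mg/kg. Both were injected into the peritoneum once a day for 3 days, and spinal cord was taken on day 3 after injury. Each group had 3 libraries, which the submitters call biological replicates. Both groups were injured, so every difference below is between treatments of an injured cord, and no uninjured cord was analysed here.

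Ligands of this superfamily are secreted dimers that bring together type I and type II receptor kinases on the cell surface. Ligands of the TGF-beta and activin kind lead to phosphorylation of Smad2 and Smad3, and BMPs to that of Smad1, Smad5 and Smad9. These join Smad4 and enter the nucleus, while Smad6 and Smad7 limit the signal. TGF-beta is secreted in a latent form, bound to its propeptide and often to a latent TGF-beta binding protein in the matrix, and has to be released before it can signal. In the injured spinal cord the family is known for its part in glial and fibrotic scar formation and in the behaviour of macrophages and astrocytes.

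Library totals were 65.6 to 78.8 (in units of 1e+06 estimated counts), and the 49 genes together took 0.185% to 0.207% of each. Oligodendrocyte markers summed to between 17870 and 24520 CPM (counts per 1e+06 after scaling by edgeR's TMM factors) in the 6 libraries, astrocyte markers to between 4744 and 8658 and neuron markers to between 1763 and 4418, so the defining transcripts of spinal cord were present in every library. Markers of sensory ganglion neurons set the libraries apart: their sum was 391, 75.9 and 81.3 CPM in PBS libraries 1, 2 and 3 and 307, 37.5 and 154 CPM in syringin libraries 1, 2 and 3. The sodium channel gene Scn10a, a marker of such neurons, had 3429, 15 and 0 counts in the PBS libraries and 3558, 0 and 818 in the syringin libraries. PBS library 1 and syringin libraries 1 and 3 thus held ganglion transcripts, in both groups.

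Of the 49 genes, 47 passed the filter on low counts and were tested, and Gdf1 and Gdf5 did not. At a Benjamini-Hochberg adjusted p under 0.05 in edgeR's quasi-likelihood test, adjusted over all 22114 genes tested, 2 rose with syringin (Tgfb1 and Gdf15), 2 fell (Smad9 and Bmpr1b) and 43 did not pass. Over all genes tested, 1108 passed, or 5.01%, with 1.62% higher and 3.39% lower, and 4 of 47 members is 8.51%. The numbers of members behind these shares are small, and nothing about the family as a whole is read from them. The median log2 fold change (syringin minus PBS) of the tested members was 0.06, against 0.01 over all genes tested, with 26 members above 0 and 21 below. The values ran from -0.97 for Smad9 to 1.62 for Gdf3. The 3 syringin values all lay above the 3 PBS values for 9 members, where this held for 14.7% of all genes tested, and all below them for 6 members, where this held for 15.3%.

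**Figure D1:**
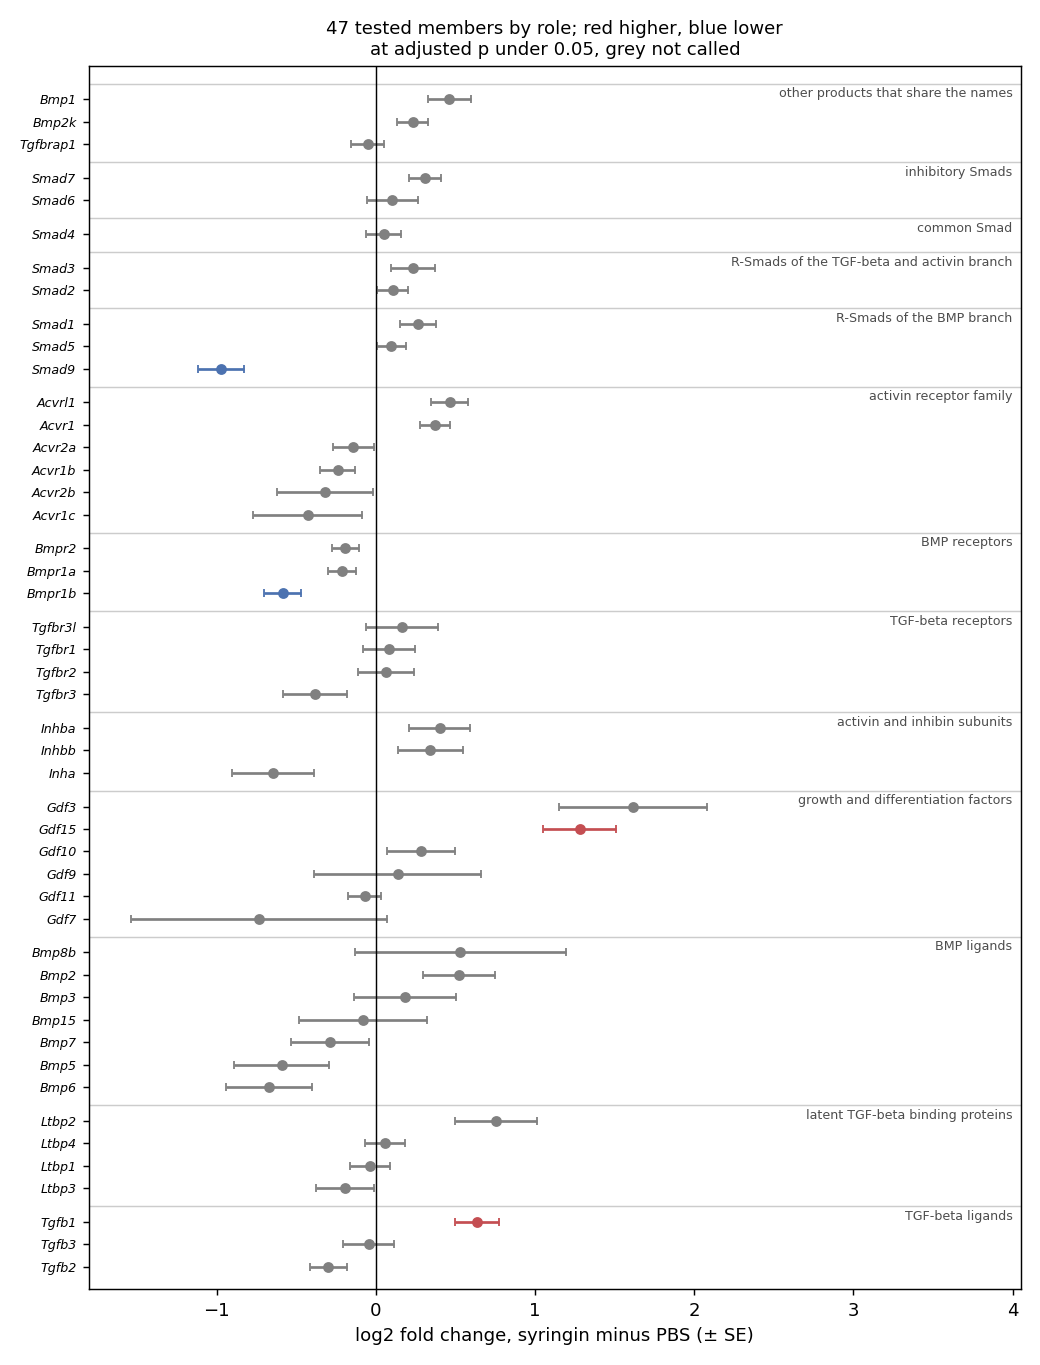
Log2 fold change (x axis, syringin minus PBS, with its standard error) of the 47 tested members, grouped by role from TGF-beta ligands at the bottom to other products at the top. Tgfb1 and Gdf15 are red (higher at adjusted p under 0.05), Smad9 and Bmpr1b are blue (lower), and the 43 others are grey.

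Of the 4 genes that passed, Tgfb1 and Gdf15 are ligands, Bmpr1b is a receptor and Smad9 a transducer. Gdf15 does not signal through the family's usual receptors. In GRCm38 (GENCODE M21), Tgfb1 (ENSMUSG00000002603) lies on the plus strand at chr7:25687002-25705077 and Gdf15 (ENSMUSG00000038508) on the minus strand at chr8:70629393-70632456. Bmpr1b (ENSMUSG00000052430) lies on the minus strand at chr3:141837136-142169425 and Smad9 (ENSMUSG00000027796) on the plus strand at chr3:54755582-54801257. None of the 4 overlaps another gene in that annotation. The promoters of the 3 whose start in RefSeq matches the gene's start in GENCODE are shown. The counts are per gene, so which start was in use was not measured. Each runs from 250 bases before to 50 bases after the RefSeq start (GRCm38.p6), in the direction of the gene. They were searched on both strands for GGCGCC (a GC-rich motif bound by Smads of the BMP branch), CAGAC (found in the Smad-binding element), TGACTCA (the AP-1 site) and TGATGCAA (a composite site for C/EBP and ATF factors). No motif is contained in another. Capitals mark matches.
Smad9, chr3:54755332-54755631, plus strand: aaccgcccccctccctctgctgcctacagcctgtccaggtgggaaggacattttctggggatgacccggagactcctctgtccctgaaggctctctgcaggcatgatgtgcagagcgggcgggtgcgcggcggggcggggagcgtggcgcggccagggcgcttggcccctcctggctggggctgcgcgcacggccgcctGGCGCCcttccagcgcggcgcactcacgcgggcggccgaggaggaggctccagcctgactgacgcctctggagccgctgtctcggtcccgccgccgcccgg
Tgfb1, chr7:25686752-25687051, plus strand: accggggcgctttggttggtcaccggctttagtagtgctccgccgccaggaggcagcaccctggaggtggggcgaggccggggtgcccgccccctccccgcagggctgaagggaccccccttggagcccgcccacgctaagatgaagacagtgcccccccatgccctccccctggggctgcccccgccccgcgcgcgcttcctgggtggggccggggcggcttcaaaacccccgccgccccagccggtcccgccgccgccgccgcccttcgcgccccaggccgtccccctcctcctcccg
Gdf15, chr8:70632407-70632706, minus strand: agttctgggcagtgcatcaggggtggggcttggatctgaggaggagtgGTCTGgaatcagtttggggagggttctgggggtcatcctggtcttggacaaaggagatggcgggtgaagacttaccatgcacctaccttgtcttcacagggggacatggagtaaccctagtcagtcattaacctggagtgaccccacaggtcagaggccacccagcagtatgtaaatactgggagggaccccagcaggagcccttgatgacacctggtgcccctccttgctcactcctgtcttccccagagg
The Smad9 window held GGCGCC, which 11.9% of 32841 RefSeq promoter windows of this length held. The Gdf15 window held GTCTG, the reverse complement of CAGAC, which on either strand was in 49.6% of the windows. Another RefSeq window of Gdf15 (chr8:70632046-70632345), whose start does not match GENCODE, is not shown and also held GTCTG. The Tgfb1 window held none of the 4 motifs, and TGACTCA and TGATGCAA (5.2% and 0.895% of all windows) were in none of the 3. A match is a description of the letters and not of binding.

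Among the 3 TGF-beta ligands, Tgfb1, an isoform made in quantity by macrophages and platelets and the usual activator of fibrosis programmes, was the member that rose. Its level was 42.5, 48.7 and 52.5 CPM in PBS libraries 1 to 3 and 61.6, 85.0 and 76.6 CPM in syringin libraries 1 to 3. The groups did not overlap, and syringin library 1 lay nearest to the PBS libraries. The mean went from 47.9 ± 5.08 to 74.4 ± 11.8 CPM (SD, n = 3), a log2 fold change of 0.64 ± 0.14 (SE; edgeR adjusted p = 0.0424). With FPKM in place of counts (limma on log2(FPKM + 0.1)), the log2 fold change of Tgfb1 was 0.60 with an adjusted p of 0.0555, which missed the threshold. It also missed the threshold when any library but syringin library 1 was left out, with adjusted p between 0.0979 (without syringin library 2) and 0.154 (without PBS library 3), and was 0.0140 without syringin library 1.

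Tgfb2, the isoform linked in the nervous system with neurons and glia, went the other way in level, with 16.2, 17.2 and 16.9 CPM under PBS and 14.8, 12.9 and 13.2 CPM under syringin. Its groups did not overlap either, but the log2 fold change of -0.30 ± 0.12 did not pass (adjusted p = 0.171). Tgfb3, the third isoform, had 27.2, 36.6 and 33.3 CPM and 26.3, 30.5 and 37.4 CPM, with full overlap and a log2 fold change of -0.04 ± 0.16. Per transcript length, Tgfb1 and Tgfb3 stood level under PBS, at 8.81 ± 0.927 and 8.88 ± 1.29 FPKM (SD, n = 3), and Tgfb2 lower at 2.69 ± 0.0777 FPKM. Under syringin they were 13.4 ± 1.83, 8.46 ± 1.40 and 2.15 ± 0.219 FPKM. Tgfb1 made up 43.7%, 41.2% and 44.9% of the summed FPKM of the 3 isoforms in the PBS libraries and 54.2%, 60.0% and 53.2% in the syringin libraries. The shares did not overlap, and the two-sided exact permutation p was 0.1, the smallest that 3 against 3 libraries can give. Shares here and below were taken for families that hold a called member, from the same libraries, so they add no separate support.

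The latent TGF-beta binding proteins, which anchor the latent complex in matrix, had no member past the threshold. Ltbp2, which unlike the other members of its family does not bind latent TGF-beta, had 12.7, 8.20 and 11.2 CPM under PBS and 25.2, 14.2 and 15.0 CPM under syringin. The groups did not overlap, syringin library 1 was the highest, and the log2 fold change was 0.76 ± 0.26 (adjusted p = 0.129). Without syringin library 1 it was 0.44. Ltbp3, the most abundant of the 4 per transcript length (13.9 FPKM over all libraries), had 115, 153 and 171 CPM and 100, 135 and 149 CPM, a log2 fold change of -0.19 ± 0.18. Ltbp1 and Ltbp4 had log2 fold changes of -0.03 ± 0.13 and 0.06 ± 0.13.

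**Figure D2:**
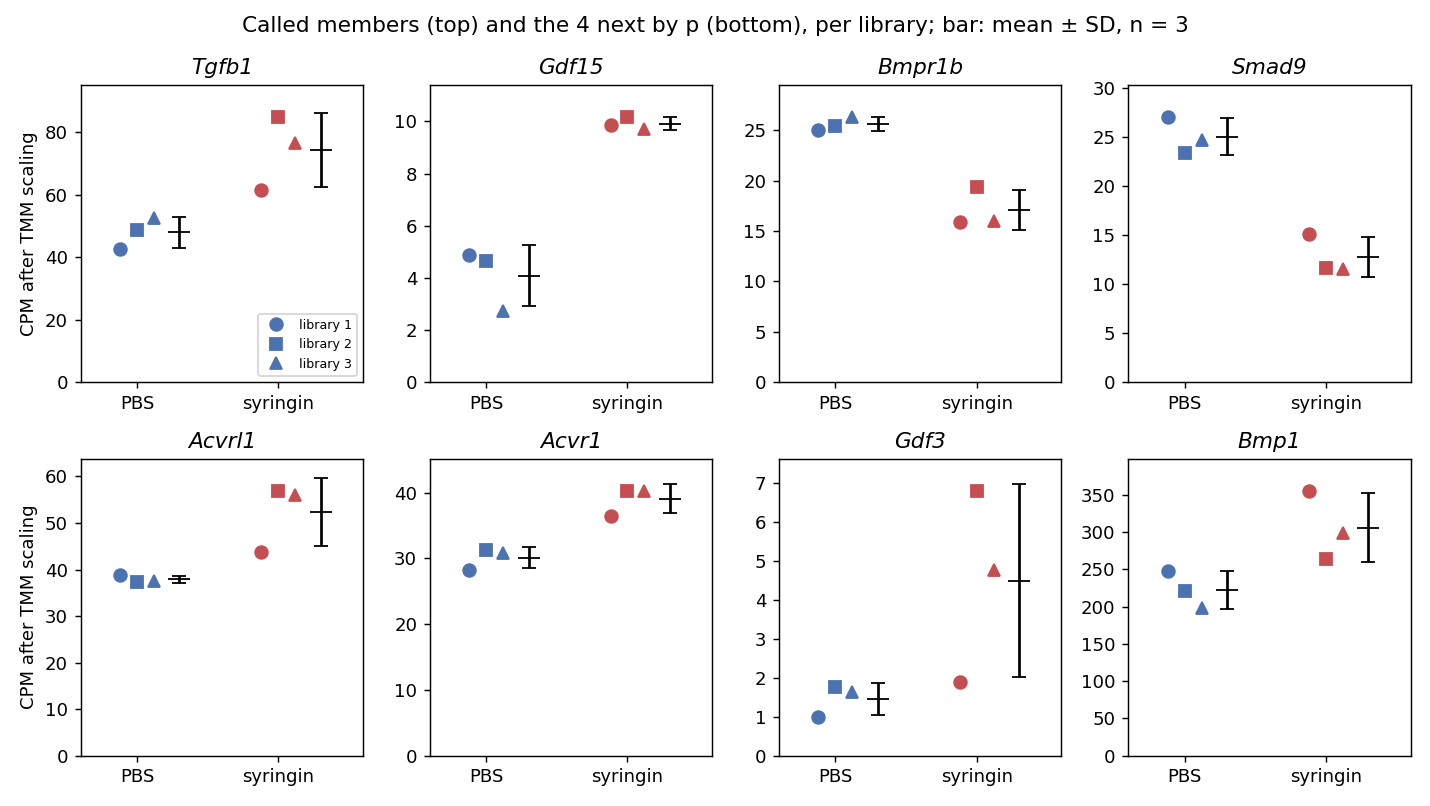
CPM after TMM scaling (y axes, from 0) in each library, for the 4 members that passed (top) and the 4 with the next smallest p (bottom); the bar beside each group is the mean with its SD (n = 3). In all 8 panels the syringin libraries lie wholly above or wholly below the PBS libraries, and syringin library 1 is the closest to PBS for Tgfb1, Smad9, Acvrl1, Acvr1 and Gdf3.

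Gdf15, a divergent ligand induced by cell stress that signals through a receptor of the brainstem rather than through the family's usual receptors, had the largest rise that passed. It had 4.86, 4.64 and 2.74 CPM under PBS and 9.85, 10.2 and 9.71 CPM under syringin, so that the syringin values were close together and PBS library 3 was the lowest. The log2 fold change was 1.28 ± 0.23 (edgeR adjusted p = 0.0270), and the level per transcript length went from 2.04 ± 0.584 to 4.88 ± 0.129 FPKM (SD, n = 3). Its adjusted p was 0.0300 without syringin library 1 and between 0.0544 (without PBS library 1) and 0.106 (without PBS library 3) without any other library. Gdf3, a Nodal-like ligand first known from pluripotent cells and also made by macrophages and fat tissue, had the largest fold change of any member and did not pass. It had 0.993, 1.77 and 1.63 CPM under PBS and 1.89, 6.81 and 4.78 CPM under syringin. The syringin libraries ranged widely, with library 1 next to the PBS values, and the log2 fold change was 1.62 ± 0.46 (adjusted p = 0.0882). Without syringin library 1, Gdf3 passed, with a log2 fold change of 1.98 (adjusted p = 0.0153).

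The remaining growth and differentiation factors did not pass. Gdf10, a ligand related to Bmp3, had a log2 fold change of 0.28 ± 0.21, and Gdf11, a close relative of myostatin and the most abundant of these per transcript length, -0.07 ± 0.10. Gdf7 and Gdf9 were below 1 FPKM, with log2 fold changes of -0.73 ± 0.80 and 0.14 ± 0.52.

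BMP ligands, which signal through Smad1, Smad5 and Smad9, had no call among 7 tested. Bmp2, an inducer of bone and of astrocyte differentiation, had 3.93, 4.21 and 5.57 CPM under PBS and 6.68, 5.14 and 7.85 CPM under syringin, a log2 fold change of 0.52 ± 0.23 with overlapping groups (adjusted p = 0.213). Bmp6, known for the control of hepcidin and iron, had 14.0, 30.3 and 30.0 CPM under PBS and 16.5, 16.2 and 14.0 CPM under syringin. Here PBS library 1 lay with the syringin libraries. The log2 fold change was -0.67 ± 0.27 (adjusted p = 0.187), and without PBS library 1 it was -0.95, which passed (adjusted p = 0.0381). Bmp7, a ligand of the meninges and of developing kidney, had 22.6, 39.2 and 34.6 CPM and 30.1, 30.1 and 18.7 CPM, a log2 fold change of -0.29 ± 0.24 with overlap. Bmp3, Bmp5, Bmp8b and Bmp15 had values between -0.59 (Bmp5) and 0.53 (Bmp8b), and none of these passed.

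Activins are dimers of inhibin beta subunits, and inhibins pair a beta subunit with the alpha subunit encoded by Inha. Inhba, which gives activin A, had 25.8, 39.8 and 37.7 CPM under PBS and 46.0, 36.9 and 53.5 CPM under syringin (log2 fold change 0.40 ± 0.19, adjusted p = 0.256). Inhbb had 8.98, 9.97 and 15.2 CPM and 14.1, 14.8 and 14.4 CPM (0.34 ± 0.20). Inha had 7.96, 9.87 and 10.1 CPM and 5.23, 4.32 and 8.35 CPM (-0.64 ± 0.26, adjusted p = 0.181). The groups overlapped for all 3 subunits and none passed.

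The TGF-beta receptors did not pass, and the type I and type II receptor levels overlapped between groups. Tgfbr1, the type I kinase, had 72.2, 77.8 and 83.5 CPM under PBS and 68.9, 105 and 72.7 CPM under syringin. Tgfbr2, the type II kinase that binds the ligand first, had 111, 132 and 121 CPM and 108, 165 and 106 CPM. In both genes syringin library 2 stood above every other library, and the log2 fold changes of 0.08 ± 0.16 and 0.06 ± 0.17 turned to -0.14 and -0.18 without it. Tgfbr3, the co-receptor betaglycan, which presents Tgfb2, had a log2 fold change of -0.38 ± 0.20 (adjusted p = 0.304), and its relative Tgfbr3l 0.17 ± 0.23.

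The 3 receptor genes with a Bmpr symbol had syringin values wholly below the PBS values, and 1 of them, Bmpr1b, passed. BMPs also use receptors of the activin receptor family, given below, of which Acvrl1 and Acvr1 had syringin values wholly above the PBS values. Of all genes tested, 15.3% had syringin values wholly below the PBS values. Bmpr1b (ALK6), a type I receptor found in brain and spinal cord on astrocytes and neural precursors, had 25.0, 25.4 and 26.4 CPM under PBS and 15.9, 19.4 and 16.0 CPM under syringin. The mean went from 25.6 ± 0.693 to 17.1 ± 2.01 CPM (SD, n = 3), a log2 fold change of -0.58 ± 0.12 (edgeR adjusted p = 0.0368). It passed without syringin library 1 (0.0470) or 2 (0.0368) and missed the threshold without any other library, with adjusted p between 0.0909 (without PBS library 1) and 0.186 (without PBS library 3). Bmpr1a (ALK3), the more widely expressed type I receptor, had 94.0, 98.3 and 98.0 CPM and 84.7, 90.0 and 76.1 CPM, a log2 fold change of -0.21 ± 0.09 (adjusted p = 0.199). Bmpr2, the type II receptor, had 147, 147 and 155 CPM and 132, 139 and 122 CPM, a log2 fold change of -0.19 ± 0.08 (adjusted p = 0.217). Bmpr1b made up 22.1%, 21.6% and 22.2% of the summed FPKM of the 2 type I receptors Bmpr1a and Bmpr1b in the PBS libraries and 16.6%, 18.6% and 18.2% in the syringin libraries, without overlap (two-sided exact permutation p = 0.1, the smallest possible).

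In the activin receptor family, 2 of the type I receptors used by BMPs had every syringin value above every PBS value and missed the threshold. Of all genes tested, 14.7% had every syringin value above every PBS value. Acvrl1 (ALK1), the endothelial receptor for circulating BMPs whose loss causes hereditary haemorrhagic telangiectasia, had 38.8, 37.2 and 37.6 CPM under PBS and 43.9, 57.0 and 56.0 CPM under syringin (log2 fold change 0.46 ± 0.12, adjusted p = 0.0614). Acvr1 (ALK2) had 28.3, 31.3 and 30.8 CPM and 36.5, 40.3 and 40.3 CPM (0.37 ± 0.09, adjusted p = 0.0619). The endothelial markers summed to between 551 and 629 CPM under PBS and between 647 and 771 CPM under syringin. Of the 8 markers, 1 was called (Pecam1, higher) and none was at 0. Only Pecam1 and Cdh5 had every syringin value above every PBS value, and the other markers overlapped between groups. The part of endothelial cells in the Acvrl1 values was not tested. Without syringin library 1, both receptors passed (adjusted p = 0.0148 for Acvrl1 and 0.0475 for Acvr1). Acvr1b (ALK4), the type I receptor of activin, had 57.4, 50.7 and 57.2 CPM and 49.9, 49.3 and 40.8 CPM, without overlap (-0.24 ± 0.11, adjusted p = 0.230). Acvr2a, a type II receptor for activins and BMPs, had a log2 fold change of -0.14 ± 0.13, and Acvr2b and Acvr1c of -0.32 ± 0.30 and -0.43 ± 0.34.

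**Figure D3:**
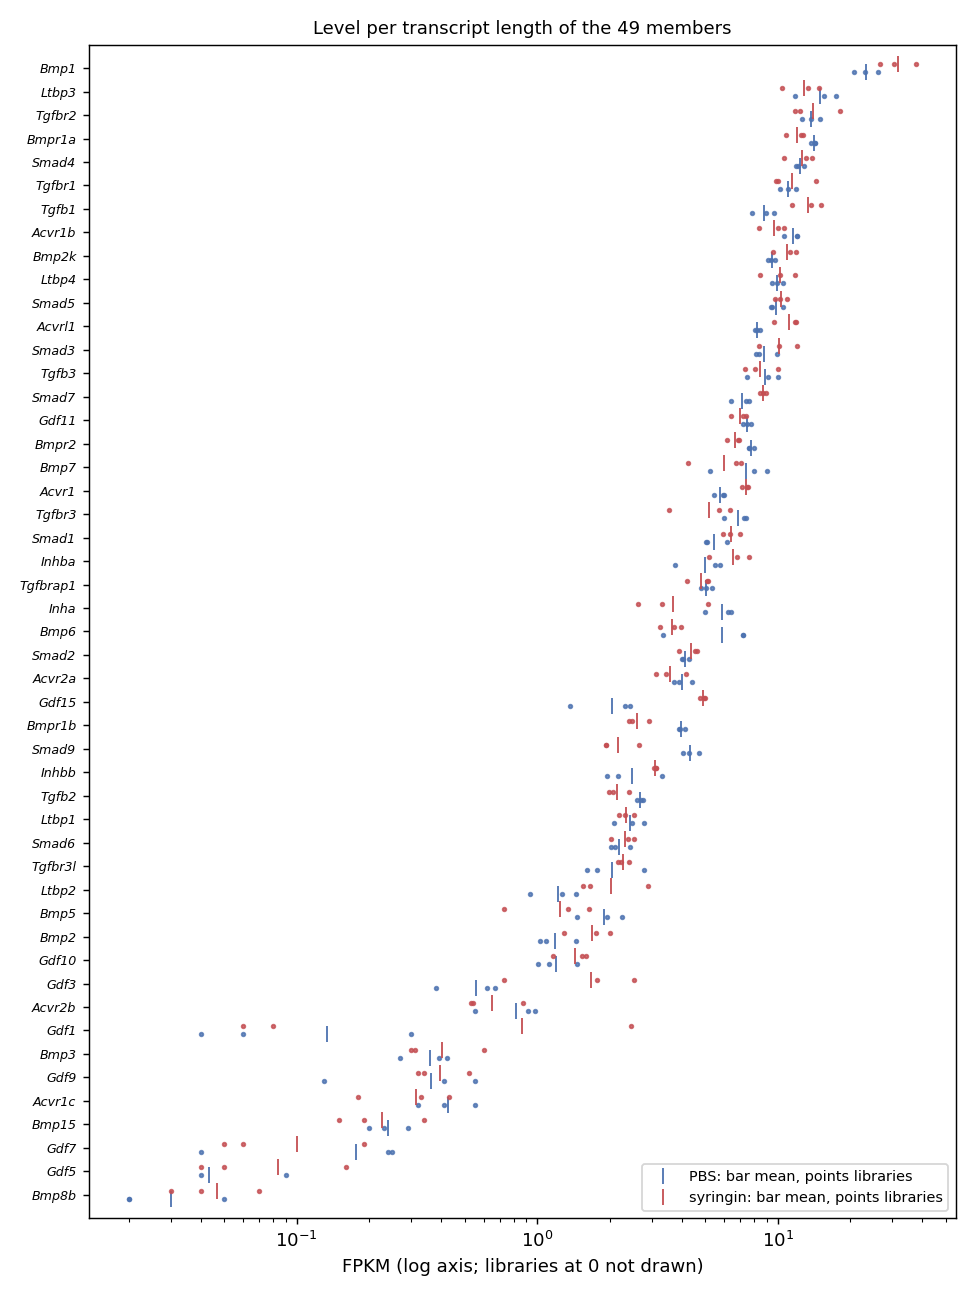
FPKM on a log axis of the 49 members in order of their mean over the 6 libraries; points are libraries (values at 0 are not drawn) and bars the mean of each group, blue for PBS and red for syringin. Bmp1 is at the top with a mean of 27.4 FPKM, 11 members are at 10 FPKM or more, and 9 are below 1 FPKM.

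Smad9 had the smallest p of all members. It encodes a receptor-regulated Smad of the BMP branch (also called Smad8) that activates transcription weakly and can dampen the signal of its partners. It had 27.1, 23.4 and 24.7 CPM under PBS and 15.2, 11.6 and 11.5 CPM under syringin, with a wide gap between the groups. The mean went from 25.1 ± 1.87 to 12.8 ± 2.06 CPM (SD, n = 3), a log2 fold change of -0.97 ± 0.14 (edgeR adjusted p = 0.0187). Its fold change stayed between -1.12 and -0.91 when any library was left out. The adjusted p was 0.00784 and 0.0435 without syringin library 1 or 2, and 0.0544, 0.0548, 0.122 and 0.0578 without PBS library 1, 2 or 3 or syringin library 3.

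The other Smads of the BMP branch did not follow Smad9 in level. Smad1 had 41.6, 34.0 and 34.3 CPM under PBS and 42.4, 41.5 and 48.2 CPM under syringin (log2 fold change 0.27 ± 0.11, adjusted p = 0.211), and Smad5 had a log2 fold change of 0.10 ± 0.09. Smad9 made up 23.1%, 21.7% and 21.5% of the summed FPKM of Smad1, Smad5 and Smad9 in the PBS libraries and 13.8%, 10.3% and 10.4% in the syringin libraries. The shares did not overlap (two-sided exact permutation p = 0.1, the smallest possible). The mean share of Smad1 was 27.7% and 33.9%, and that of Smad5 50.2% and 54.6%.

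The Smads of the TGF-beta and activin branch and the common Smad did not pass, and their values overlapped between groups. The log2 fold changes were 0.11 ± 0.10 for Smad2, 0.23 ± 0.14 for Smad3 and 0.05 ± 0.11 for Smad4. Smad7, an inhibitory Smad that TGF-beta itself induces, had 31.2, 36.1 and 36.9 CPM under PBS and 40.7, 43.9 and 44.5 CPM under syringin, without overlap (0.31 ± 0.10, adjusted p = 0.114). Smad6, the inhibitory Smad of the BMP branch, had a log2 fold change of 0.10 ± 0.16.

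Besides the latent TGF-beta binding proteins, the symbols also take in 3 products that are no ligand, receptor or Smad. Bmp1 encodes the procollagen C-proteinase, a metalloprotease that trims fibrillar procollagens and cleaves the BMP antagonist chordin, and it was the most abundant member per transcript length. It had 248, 221 and 198 CPM under PBS and 356, 264 and 299 CPM under syringin, without overlap (log2 fold change 0.46 ± 0.13, adjusted p = 0.0920). Bmp2k, a kinase that BMP2 induces and that acts in endocytosis and autophagy, had 0.23 ± 0.10 (adjusted p = 0.196), and Tgfbrap1, a vesicle tethering protein, -0.05 ± 0.10.

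Other genes of the pathway were taken from 7 lists of 99 genes in all, none of them a member and 92 of them tested. Pmepa1, Skil and Bambi stand in 2 lists each and are counted once in the total. At the same threshold 7 rose and 1 fell, or 8.70%, against 5.01% of all genes tested. Among genes that release or store latent ligand, 2 of 17 rose and 1 fell, with a list median of 0.35 on the log2 scale. Thbs1, thrombospondin, an activator of latent TGF-beta also made by platelets and macrophages, had 578, 417 and 722 CPM under PBS and 978, 1754 and 1262 CPM under syringin (log2 fold change 1.22 ± 0.26, adjusted p = 0.0410). Furin, the protease that cuts the TGF-beta propeptide, rose (0.51 ± 0.10, adjusted p = 0.0302). Itgb8, whose integrin activates latent TGF-beta on astrocytes and myeloid cells, fell from 219, 218 and 227 CPM to 171, 161 and 147 CPM (-0.47 ± 0.09, adjusted p = 0.0294). The 3 that passed in this list thus include activators in both directions.

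The list of 17 TGF-beta target genes had 2 that rose and none that fell, with a median of 0.26. Tgfbi, a secreted matrix protein named for its induction by TGF-beta, had 228, 199 and 204 CPM under PBS and 399, 343 and 326 CPM under syringin (log2 fold change 0.76 ± 0.11, adjusted p = 0.0176). Tnc, tenascin C, a matrix protein of wounds, rose by 0.90 ± 0.14 (adjusted p = 0.0205). The collagen and growth factor targets Col1a1 and Ccn2 did not pass, with -0.13 ± 0.43 and -0.09 ± 0.15. Ccn1, a matricellular protein, and Timp1, an inhibitor of matrix metalloproteases, did not pass either (0.80 ± 0.23 and 0.47 ± 0.14). Their CPM values did not overlap between groups. For Timp1 the nearest were 87.4 CPM (PBS library 2) and 87.5 CPM (syringin library 2), and its FPKM values overlapped. In all, 11 of the 17 targets were above 0, where 50.9% of all genes tested were. These genes also answer to other signals.

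The 9 tested BMP target genes had no call, and their values pointed both ways (median 0.19, 5 above 0). The Id genes encode inhibitors of basic helix-loop-helix factors and are the standard readout of BMP signalling. Id4 had 59.3, 72.9 and 56.5 CPM under PBS and 47.8, 41.4 and 45.0 CPM under syringin (log2 fold change -0.49 ± 0.12, adjusted p = 0.0566). Id1 had 29.9, 31.5 and 23.1 CPM and 39.7, 37.0 and 47.5 CPM (0.56 ± 0.15, adjusted p = 0.0735). The groups of neither gene overlapped, and the values of these 2 genes differed in sign. The remaining Id genes were above 0, Id3 at 0.32 ± 0.12 without overlap (adjusted p = 0.151) and Id2 at 0.22 ± 0.16 with overlap, so that 3 of the 4 Id genes had a value above 0.

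No ligand trap or antagonist passed among 16 tested. Of these, 15 had a log2 fold change below 0, with a median of -0.51, where 50.9% of all genes tested were above 0. The smallest p were those of Bmper, a regulator of BMPs in vessels (9.73, 9.12 and 10.6 CPM under PBS and 6.83, 4.04 and 4.17 CPM under syringin, log2 fold change -0.97 ± 0.23, adjusted p = 0.0545), and Crim1, a membrane protein that holds BMPs (-0.51 ± 0.13, adjusted p = 0.0611). The classic antagonists Chrd (chordin) and Nog (noggin) had -0.76 and -0.73. At an unadjusted p under 0.05, 4 of the 16 passed (25.0%), which is near the 23.6% of all genes tested.

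**Figure D4:**
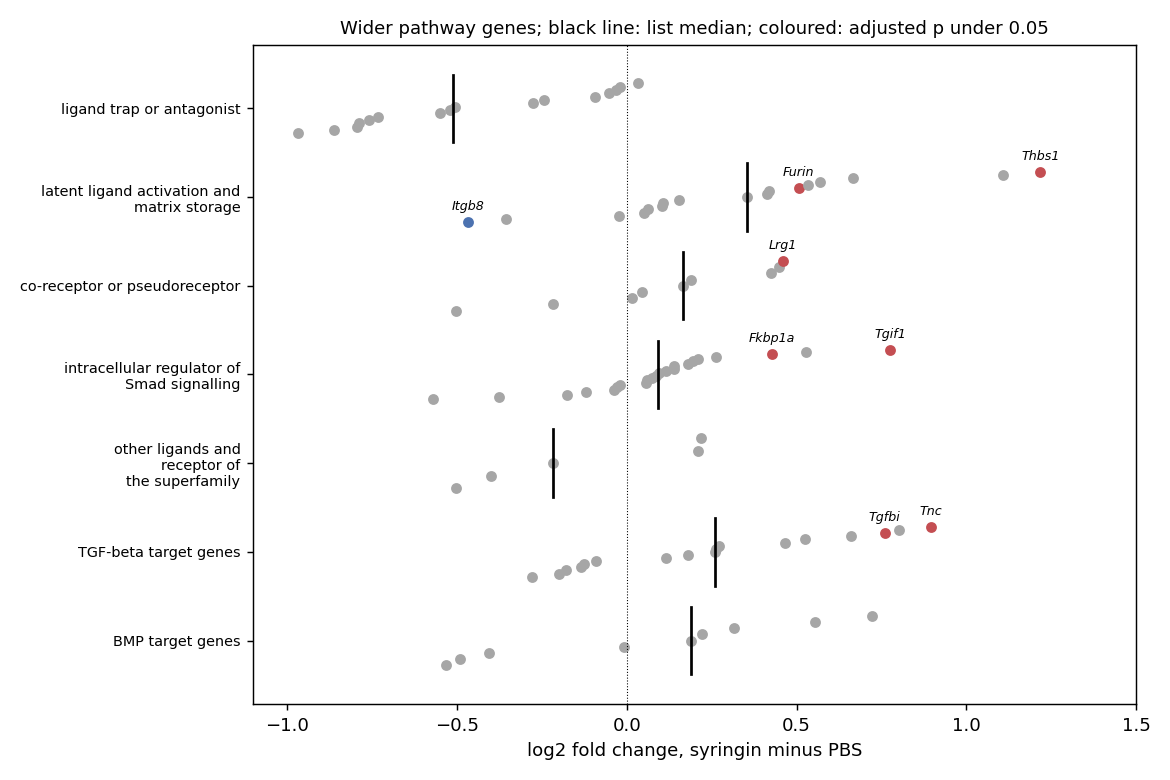
Log2 fold change (x axis, syringin minus PBS) of each tested gene in 7 lists of the wider pathway, with the list median as a black line; red and blue points passed (higher and lower). The antagonists lie left of 0 except for 1 gene, and the 8 named genes are those that passed.

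In the list of co-receptors and pseudoreceptors 1 of 9 rose and none fell. This was Lrg1, itself no receptor but a secreted glycoprotein that binds the endothelial co-receptor endoglin (log2 fold change 0.46 ± 0.10, adjusted p = 0.0424). Endoglin, Eng, had 81.8, 96.1 and 76.8 CPM under PBS and 102, 118 and 127 CPM under syringin (0.45 ± 0.12, adjusted p = 0.0729). Of 22 intracellular regulators 2 rose. Tgif1, a corepressor of Smads, had 22.4, 22.5 and 20.1 CPM under PBS and 33.6, 39.1 and 38.5 CPM under syringin (0.78 ± 0.10, adjusted p = 0.0145). Fkbp1a, whose product FKBP12 holds type I receptors inactive, rose by 0.43 ± 0.10 (adjusted p = 0.0462). Of the other superfamily members none of 5 passed, and the 2 with the smallest p, Lefty1 and Lefty2, had log2 fold changes of 0.22 ± 0.22 and -0.50 ± 0.61.

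Several marker lists of other cell types differed in level together with these genes. In whole tissue, fewer cells of a type and less RNA per cell cannot be told apart. Over all genes tested, 1.62% were called higher and 3.39% lower. Macrophage and monocyte markers, a known source of Tgfb1, summed to between 3973 and 4882 CPM under PBS and between 5607 and 15200 CPM under syringin, with 3 of 10 higher (Arg1, Msr1 and Lgals3). Most of that sum came from Spp1, whose mean was 2921 CPM under PBS and 6713 CPM under syringin. Spp1 and Cd68 lay wholly above the PBS values but did not pass (adjusted p = 0.0851 and 0.0666). Adgre1, Ly6c2, Gpnmb, Itgam and Ccr2 overlapped between groups. Platelet markers summed to between 52.4 and 53.5 CPM and between 79.6 and 122 CPM, with 1 of 5 higher (Pf4). Pf4 alone separated these sums, at 38.1 to 42.7 CPM under PBS and 71.7 to 102 CPM under syringin. The other 4 platelet markers each overlapped between groups, and Gp9, which defines platelets, was at 0 in syringin library 2. Astrocyte markers summed to between 7143 and 8658 CPM and between 4744 and 6582 CPM, with 2 of 7 lower (Slc1a2 and Gjb6). Slc1a3 also lay wholly below the PBS values but did not pass (adjusted p = 0.0816). Gfap, the largest part of the astrocyte sum, overlapped between groups, as did Aqp4, Gja1 and Aldh1l1. Neuron markers summed to between 3337 and 4418 CPM and between 1763 and 2539 CPM, with 5 of 8 lower, and Schwann cell markers to between 339 and 1397 CPM and between 122 and 298 CPM, with 1 of 5 lower. Fibroblast markers overlapped, between 1604 and 2896 CPM and between 1631 and 2590 CPM, with none of 9 called. The sums of homeostatic microglia markers overlapped too, between 958 and 1138 CPM and between 734 and 1252 CPM, with none of 8 called. Of these, P2ry12, Gpr34 and Siglech lay wholly below the PBS values, and the others overlapped between groups. The part of any of these cell types in the values of Tgfb1, Smad9, Bmpr1b and the antagonists was not tested.

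Within the libraries that held ganglion transcripts (1 PBS and 2 syringin) and within those that did not (2 PBS and 1 syringin), the difference in mean log2 CPM of the 4 members that passed was as follows. Its sign could not differ, because the groups did not overlap in any of the 4, so only its size is given. It was 0.69 and 0.75 for Tgfb1, 1.01 and 1.51 for Gdf15, -0.65 and -0.42 for Bmpr1b and -1.03 and -1.04 for Smad9, in that order and with no test.

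**Figure D5:**
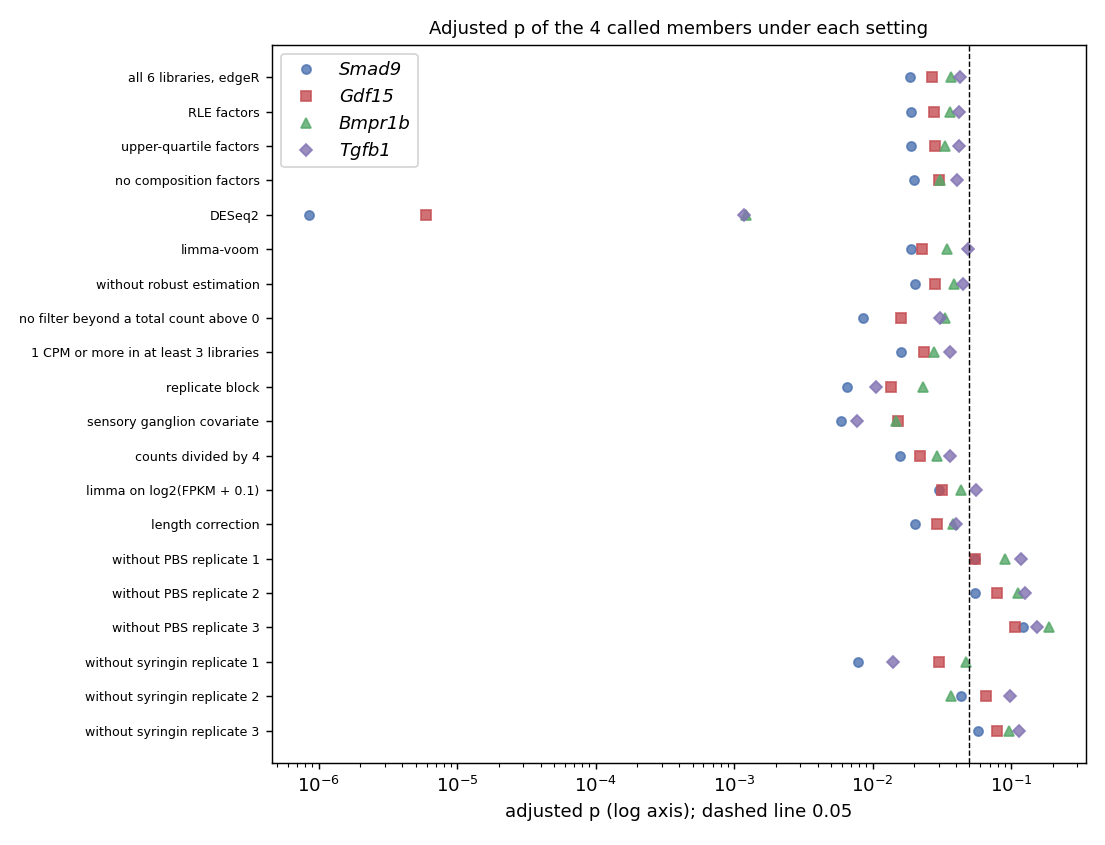
Adjusted p (x axis, log scale, dashed line at 0.05) of Smad9, Gdf15, Bmpr1b and Tgfb1 under each setting, from all 6 libraries in edgeR at the top to each library left out at the bottom. All 4 pass under the other scalings, filters and count tests; without PBS replicate 3 they lie between 0.106 and 0.186.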

How the data were processed

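RNA from spinal cord of PBS and syringin mice was sequenced as 3 stranded polyadenylated libraries per group, per the labels. HISAT2 and StringTie are named, without version, in the submitters' processing notes, as are GRCm38 and mm10. In the table the authors deposited, each gene and library has an estimated count (whole numbers, used as they are) and an FPKM value, scaled by transcript length and depth. The use of strand in counting is not stated in those sources. Many members other than the 4 called overlap a gene on the opposite strand (Tgfb3 with Ttll5, Bmp6 with Txndc5), so their counts are uncertain. Counts of 4 were 1.51 times as frequent as the mean of counts of 3 and 5, so counts divided by 4 were an alternative. The table's coordinates follow another build or annotation (717 of 34804 shared genes had the same start as in GENCODE M21), so positions come from GENCODE M21 by gene ID and promoters from RefSeq (GRCm38.p6).

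Samples were grouped by labelled treatment. Counts were scaled by TMM, filtered with filterByExpr (minimum count 10, minimum total 15) and tested by quasi-likelihood in edgeR 4.0.16 (R 4.3.3; robust, with treatment alone in the model), with p-values two-sided and Benjamini-Hochberg adjusted over 22114 genes. A gene was called at adjusted p under 0.05. The common biological coefficient of variation came to 24.9%. Each SE was derived from the fold change and its F statistic. The labels do not say whether animals were pooled, so p-values measure the spread between these samples. The procedure was tested on simulated data. Alternatives were other scalings, filters and tests (DESeq2 1.42.0, limma 3.58.1), a replicate block, a ganglion covariate, FPKM, a length correction and each library left out. The members, the lists and the tests were chosen with earlier results of these data known. Members named were those called, fixed genes of each role and the extremes of fold change; from each wider list, those called and the 2 with the smallest p. Inha, Tgfbr3l, Chrd, Nog, Col1a1, Ccn1, Ccn2, Timp1, Id2, Id3 and a few members outside this rule were named after their values were seen. 1 gene with a matching symbol and 1 gene of the wider lists are not reported here and are left out of the counts of both.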

Additional observations from a re-analysis of the deposited data

How the results depend on the processing

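Against 1108 genes called with edgeR (2 members higher, 2 lower, 8 genes of the wider lists), DESeq2 called 2799 (7 members higher, 21 of the wider lists), the replicate block 2557 (7 and 21), the ganglion covariate 2528 (6 and 20) and limma on log2(FPKM + 0.1) 707 (1 and 4). DESeq2 and the block both added Acvr1, Acvrl1, Bmp1, Gdf3 and Ltbp2 as higher, and the background then was 15.3% and 11.6% of genes. With the ganglion covariate the background was 2528 of 22114 genes. Same-numbered libraries had deviations that correlated at 0.292, 0.123 and 0.052 (libraries 1, 2 and 3). Syringin libraries 1 and 3 correlated best with the PBS library of their number, and syringin library 2 with PBS library 3, at 0.135. Whether the replicate numbers pair the libraries is not settled by these values. Leaving out 1 library gave 0 to 1944 genes called, 0 to 5 members higher, 0 to 2 lower and 0 to 15 of the wider lists. No gene at all was called by edgeR without PBS library 3 (0, with 3449 genes and 12 members at an unadjusted p under 0.05). No member was called higher when any library other than syringin library 1 was left out, and none lower without PBS library 2 or 3 or syringin library 3. In a setting added after seeing the data, DESeq2 without PBS library 3 called 4 members higher (Tgfb1, Gdf15, Gdf3 and Inhbb) and 2 lower. Its background was 1346 of 15908 genes, 476 of them higher and 870 lower. Without the same library, limma-voom called 0 of 22804 genes. It thus had 0 members higher and 0 lower, with 11 members at an unadjusted p under 0.05.

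Of 646 fold changes of 34 named members under 19 alternatives, 609 kept their side of the threshold, 19 lost the call, 18 gained it and 0 called values reversed. Among the 609, the sign differed in 10 uncalled values of 7 members. With 3 libraries a group and a wide spread, members below 1 FPKM could not be resolved, and members with an adjusted p above 0.05 are not shown to be unchanged.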

Other observations

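Gdf1, a ligand of left-right patterning that did not pass the filter on low counts, had 33, 7 and 5 counts in the PBS libraries, 10 and 6 counts in syringin libraries 1 and 2, and 249 counts in syringin library 3. It shares its locus and strand with Cers1, a ceramide synthase gene of neurons, which had 4570, 3821 and 4024 counts in the PBS libraries and 3247, 3199 and 3500 counts in the syringin libraries. Syringin library 3 did not stand apart in Cers1.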
